A study of Mus musculus with 16 samples.

Results

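Th17 cells, the class of helper T cells named for making IL-17, were compared by RNA sequencing between mice with and without a T cell knockout of pyruvate dehydrogenase (PDH), in cultures that received no acetate. Both genotypes carried PDH alleles flanked by loxP sites (PDHfl/fl). The knockout (KO) mice also carried CD4 Cre, a recombinase driven by the Cd4 promoter, and the animals labelled wild type (WT) carried the floxed alleles without Cre. The comparison took the 4 WT and the 4 KO libraries labelled as untreated, chosen by their labels alone, out of 16 libraries, and covered all genes: 14985 of the 15571 in the table passed the low-count filter. Naive CD4 T cells from spleen and lymph nodes had been cultured for 3 days with plate-bound anti-CD3 (5 µg/mL), anti-CD28 (1 µg/mL), IL-6 (30 ng/mL), TGFβ (2 ng/mL) and an IFNγ-blocking antibody (5 µg/mL). The other 8 libraries were the same genotypes cultured with 10 mM sodium acetate, and their levels are used only where the genotype difference is set beside that with acetate. They also share in the fit, and so in the filter and the estimate of spread behind each test of the untreated libraries, where fitting the 8 untreated libraries alone called 5691 genes against 5481. No group carried Cre without the floxed alleles, so effects of Cre and of the deletion cannot be told apart. The labels name neither the animals nor the PDH gene that was floxed, and the p-values measure the spread between libraries, which may be technical. Sample titles spell the target PHD and the protocols PDH, and the protocols' spelling was followed.

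The PDH complex turns pyruvate, the product of glycolysis, into acetyl-CoA inside mitochondria. That acetyl-CoA joins the tricarboxylic acid (TCA) cycle as citrate, and citrate exported to the cytosol supplies acetyl-CoA for fatty acid synthesis and for the acetylation of histones. Pyruvate dehydrogenase kinases switch the complex off and phosphatases switch it back on. Th17 cells depend on the transcription factor STAT3, and they take up glucose and build fatty acids at a high rate as they differentiate.

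The untreated libraries held 27.88 to 33.62 M estimated counts each. A single gene that the reference table leaves unnamed took over 3% of the counts in WT library 1 and in KO libraries 1 and 2, and under 1% in the other 5 untreated libraries. One library with acetate (KO 2) also passed that level, and these 4 are called the high-share libraries here. All 12 markers of CD4 T cells were detected, with a summed level of 4240 to 4350 counts in each 1000000 (CPM) in WT and 3400 to 3760 CPM in KO libraries. The summed markers of B cells reached at most 8.78 CPM in any library, those of myeloid and dendritic cells 5.45 CPM and those of gamma delta T cells 12.1 CPM. Of these 3 lists, 16 of 30 genes could be tested and 0 were called, the defining macrophage genes Adgre1 and Csf1r were not among the genes analysed here, and the B cell gene Cd79b lay at 1.21 ± 0.421 CPM in WT libraries and 1.42 ± 0.393 CPM in KO libraries (mean ± SD, n = 4, as throughout). Markers of CD8 and natural killer cells summed to 38.7 to 48.2 CPM in WT and 26.8 to 37.6 CPM in KO libraries. Of the 7 tested, 1 was called higher and 3 lower in KO cells (57.1%, against 36.6% of all tested genes). Of 4 tested stromal and epithelial markers 1 was higher and 1 lower. The 1 tested erythroid and platelet marker was higher, at 0.372 to 0.882 CPM in WT and 1.37 to 2.6 CPM in KO libraries. Xist, transcribed from the inactive X chromosome of females, and the Y-linked gene Kdm5d were both present in all 8 libraries, Xist at 559 to 622 CPM in WT and 862 to 1094 CPM in KO libraries and Kdm5d at 3.78 to 5.31 CPM and 4.93 to 7.51 CPM. Both genes were called higher in KO cells, and Kdm5d lost its call in 7 of the 17 alternative analyses listed in the closing section. Of the other Y-linked genes looked for, Ddx3y and Eif2s3y were not among the genes analysed here, and Uty did not pass the low-count filter. Kdm5d was thus the only Y-linked gene tested, and the sex of the animals was not determined. The part of cell makeup and of animal sex in the differences below was not tested. In bulk RNA, fewer cells of a type and less RNA per cell cannot be told apart.

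KO cells differed from WT cells in 36.6% of the genes tested: of 14985, 2699 (18.0%) were higher and 2782 (18.6%) lower in KO cells at an adjusted p under 0.05. More of the large differences were rises, since 685 genes rose and 245 fell by more than 2-fold. The median log2 fold change of all tested genes was 0.014. In 4620 of the 5481 called genes the 4 libraries of one genotype all lay above the 4 of the other, and such separation was seen in 36.0% of all tested genes (KO above WT in 17.9%, KO below WT in 18.2%). The split between rises and falls rested on how libraries were scaled, with 1914 higher and 3217 lower with library totals alone and 3243 and 2227 with upper-quartile scaling. Without the 4 high-share libraries 1577 genes were higher and 1784 lower. The plot of all tested genes marks where the genes described below lie.

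**Figure D1:**
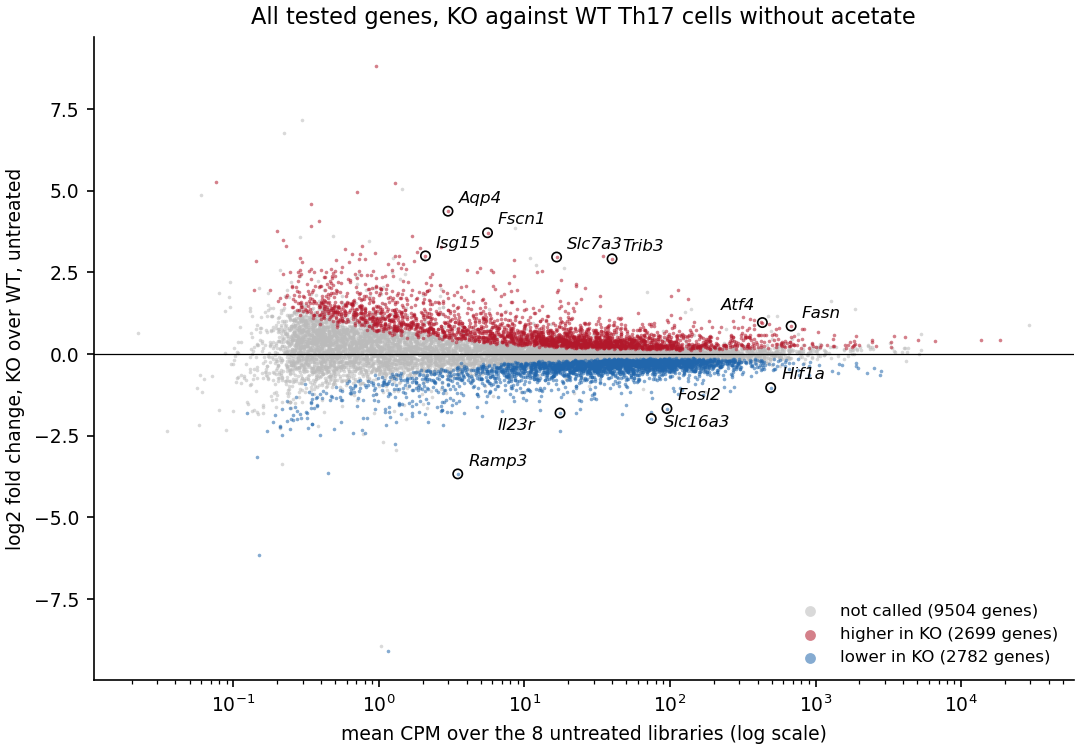
Each point is one of 14985 tested genes, placed by its mean CPM over the 8 untreated libraries (x axis, log scale) and its log2 fold change of KO over WT (y axis); coloured points passed an adjusted p of 0.05, 2699 higher in KO (red) and 2782 lower (blue), and grey points did not. Slc16a3 lies at −1.98 and Il23r at −1.80, and Trib3, Slc7a3 and Aqp4 lie at 2.91, 2.97 and 4.37.

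The complex that was targeted was measured first. The floxed gene is not named, and gene-level counts do not resolve single exons, so subunit levels do not check the genotype labels. Of the 5 subunit genes, 0 rose and 2 fell (40% called, near the 36.6% of all tested genes). Falls numbered 1 to 3 across the alternative analyses. Pdhx, which tethers the E3 subunit to the core, stood at 23.5, 25.0, 23.1 and 23.05 CPM in WT libraries 1 to 4 and 18.4, 17.6, 20.2 and 19.5 CPM in KO libraries 1 to 4. Every KO value was below every WT value (log2 fold change −0.32, standard error (SE) 0.075, adjusted p = 0.00256). Without the high-share libraries the value was −0.26 at an adjusted p of 0.0879. Pdha1, the E1 alpha subunit, was at 234, 250.2, 241 and 263 CPM in WT and 232, 235, 223 and 209.6 CPM in KO libraries, ranges that overlapped (log2 fold change −0.14, SE 0.0585, adjusted p = 0.0761), and its adjusted p was 0.0482 with library totals alone, 0.0345 in DESeq2 and 0.0455 without the high-share libraries. Dlat, the E2 core subunit, was at 75.9 ± 3.67 CPM in WT cells and 66.6 ± 2.60 CPM in KO cells (adjusted p = 0.0326), and its call was lost in 8 of the 17 alternative analyses listed in the closing section, with adjusted p between 0.0509 and 0.14.

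Around pyruvate, the steepest fall was in the exporter of its reduced form. Slc16a3, the carrier (MCT4) that passes lactate out of cells, was at 109, 131, 115 and 119 CPM in WT libraries 1 to 4 and at 33.8, 26.7, 29.7 and 30.4 CPM in KO libraries 1 to 4. No KO library came near the WT range, and the fall was 3.93-fold (log2 fold change −1.98, SE 0.134, adjusted p = 5.92e-08). Mpc2, of the carrier that brings pyruvate into mitochondria, was at 28.1 ± 1.30 CPM in WT cells and 31.0 ± 2.71 CPM in KO cells (adjusted p = 0.245). Of the kinase genes that restrain PDH, Pdk1 fell from 91.2 ± 3.96 to 71.0 ± 8.06 CPM and Pdk3 from 59.7 ± 1.501 to 49.0 ± 3.27 CPM. Pdk2 was at 3.11 ± 0.678 and 2.19 ± 0.380 CPM (adjusted p = 0.0861, 0.0352 without WT library 1 and 0.0489 with a term for replicate number). The activating phosphatase gene Pdp2 rose from 34.7 ± 1.92 to 44.0 ± 1.76 CPM. Ldha, the lactate dehydrogenase subunit gene, fell from 2098 ± 66.0 to 1724 ± 167 CPM (log2 fold change −0.28, adjusted p = 0.00468). Pyruvate carboxylase, Pcx, which makes oxaloacetate from pyruvate without PDH, was at 17.8, 14.8, 14.9 and 14.2 CPM in WT and 24.4, 22.7, 24.4 and 23.7 CPM in KO libraries. It rose 1.54-fold, with all KO libraries above all WT libraries (SE 0.118 on the log2 scale, adjusted p = 0.000487). In all, 3 of the 13 tested genes of this node rose and 4 fell (53.8% called, against 36.6% of all tested genes).

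Neither main source of cytosolic acetyl-CoA passed the test. Acly, which splits cytosolic citrate, was at 554, 692, 639 and 655 CPM in WT and 676, 682, 694 and 678 CPM in KO libraries, and Acss2, which makes acetyl-CoA from acetate in cytosol and nucleus, at 12.6, 21.1, 21.95 and 26.3 and 20.9, 32.4, 25.4 and 20.5 CPM. Both pairs of ranges overlapped (adjusted p = 0.404 and 0.419). Of 10 genes of citrate and acetyl-CoA supply 0 rose and 4 fell (40% called, near the 36.6% of all tested genes). Cs, the citrate synthase gene, fell from 358 ± 15.2 to 301 ± 20.5 CPM, Acss1, the mitochondrial counterpart of Acss2, from 6.26 ± 0.457 to 3.74 ± 1.11 CPM, Slc33a1, which carries acetyl-CoA into the endoplasmic reticulum, from 34.8 ± 2.11 to 30.2 ± 2.01 CPM, and the carnitine acetyltransferase gene Crat from 10.6 ± 0.943 to 8.29 ± 1.46 CPM. Falls of the list numbered 0 without the high-share libraries and 2 with upper-quartile scaling or without WT library 4, and Crat and Slc33a1 lost their calls in 11 and 5 of 17 alternatives. Among the lipid-building enzymes, Fasn, the fatty acid synthase, was at 476, 516, 528 and 416 CPM in WT and 878, 767, 863 and 996 CPM in KO libraries, with no overlap (log2 fold change 0.86, SE 0.0976, adjusted p = 3.13e-06). Acaca, the acetyl-CoA carboxylase that commits acetyl-CoA to fat, rose from 174 ± 4.75 to 245 ± 10.9 CPM, Mcat, the malonyl transferase of mitochondrial fatty acid synthesis, from 17.1 ± 1.90 to 23.9 ± 1.29 CPM, and the desaturase gene Scd2 from 1577 ± 115 to 2097 ± 214 CPM. Elovl6, which lengthens the palmitate made by fatty acid synthase, moved the other way, from 68.7, 69.9, 73.3 and 79.2 CPM in WT to 37.4, 27.5, 33.0 and 33.1 CPM in KO libraries. Its KO libraries all lay below its WT libraries, a 2.22-fold fall (SE 0.0835 on the log2 scale, adjusted p = 2.82e-08). Of 16 fatty acid synthesis genes 6 rose and 2 fell (50% called, against 36.6% of all tested genes). Rises numbered 9 by upper-quartile scaling. Falls numbered 1 by that scaling or without KO library 2, KO library 3, WT library 2, WT library 4 or the high-share libraries. Of 25 cholesterol synthesis genes, which share the SREBP regulators, 2 rose and 2 fell, a called share of 16% against 36.6% of all tested genes. Idi1, an isoprenoid-forming isomerase, rose from 578 ± 62.2 to 843 ± 41.0 CPM, while Fdft1, the squalene synthase, was at 142 ± 13.7 and 153 ± 13.7 CPM (adjusted p = 0.42). A total of 5 cholesterol genes rose when only the 8 untreated libraries were fitted, 4 with upper-quartile scaling or the filter at 50 counts in 4 libraries, and 1 fell without the high-share libraries.

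Some nuclear genes of the TCA cycle fell by small amounts. Of 23 genes of the cycle and of glutamine entry, 9 fell, 1 rose and 13 did not pass the test. The called share was 43.5% and the median log2 fold change −0.12, against 36.6% and 0.014 for all tested genes. Idh3a, the catalytic subunit of NAD-dependent isocitrate dehydrogenase, was at 148, 145, 148 and 153 CPM in WT and 119, 108, 114 and 122 CPM in KO libraries. The KO libraries all lay below the WT libraries (log2 fold change −0.36, SE 0.0549, adjusted p = 6.23e-05). Suclg1, of succinyl-CoA ligase, fell 1.26-fold, Sdhd, a membrane anchor of succinate dehydrogenase, 1.28-fold, fumarase Fh1 1.25-fold and the aspartate-forming transaminase Got2 1.32-fold. The gene that rose, Suclg2 (67.4 ± 5.52 to 78.3 ± 3.92 CPM), lost its call in 6 alternatives, among them the fits without KO library 2, KO library 3, WT library 1 or WT library 3. Ogdh, of the 2-oxoglutarate dehydrogenase complex, which is built like PDH and shares its E3 subunit, was at 247 ± 19.1 and 224 ± 17.9 CPM (adjusted p = 0.128).

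Fatty acid oxidation genes fell more often than they rose, 7 against 2 of 18 (50% called, against 36.6% of all tested genes). The medium-chain dehydrogenase gene Acadm fell from 40.3 ± 3.81 to 29.6 ± 0.723 CPM, the short-chain Acads from 30.1 ± 1.36 to 20.1 ± 2.45 CPM and the thiolase gene Acaa2 from 33.4 ± 2.18 to 26.2 ± 2.18 CPM. Etfa, whose product passes electrons from these dehydrogenases onward, rose from 74.7 ± 1.91 to 89.5 ± 4.72 CPM, and with upper-quartile scaling 4 genes rose and 5 fell. A single fatty acid oxidation gene rose with library totals or RLE scaling, with no filter, and without KO library 2 or 3, WT library 2, 3 or 4 or the high-share libraries. Respiratory chain genes were counted by list, and a difference between complexes was not tested. Of 35 nuclear genes of complexes III, IV and V, 11 fell and 1 rose (34.3% called, near the 36.6% of all tested genes). Falls numbered 7 when KO library 3 or the high-share libraries were left out, and rises numbered 4 with upper-quartile scaling. Uqcrfs1, the Rieske iron-sulfur protein of complex III, was at 126, 127, 129.9 and 126 CPM in WT and 89.3, 80.4, 84.8 and 93.0 CPM in KO libraries, all KO below all WT (log2 fold change −0.55, SE 0.0582, adjusted p = 1.54e-06). Uqcrh, its hinge protein gene, fell 1.38-fold and the ATP synthase subunit genes Atp5h and Atp5d 1.33- and 1.37-fold. Complex I gave 5 falls and 2 rises among 37 nuclear genes, below the share of all genes called, and 1 fall without KO library 2, without WT library 1 or without the high-share libraries. Each other untreated library left out gave 2 to 4 falls, and 0 genes rose without WT library 4. Fitting only the 8 untreated libraries gave 6 rises and 6 falls, and upper-quartile scaling 4 rises and 2 falls. Ndufv3, an accessory subunit, was its steepest fall, from 52.9 ± 2.48 to 36.1 ± 2.89 CPM. Of 13 mitochondrially encoded genes 2 rose, below the 18.0% of all genes, with 1 rise without KO library 1 or 3 or WT library 1, 2 or 3, 4 without KO library 2 and 5 with upper-quartile scaling. Of these genes, mt-Co1 of complex IV was at 14504, 16127, 15504 and 16889.7 CPM in WT and 21416, 20851, 20818 and 20970.3 CPM in KO libraries (log2 fold change 0.42, adjusted p = 0.000506), without overlap. Nuclear copies of mitochondrial genes can share reads with them, so these levels are uncertain.

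Glycolysis was the fuel pathway with the most falls. Of 20 genes, 13 fell and 2 rose, against 18.6% and 18.0% of all genes, and the median log2 fold change was −0.43. Hexokinases, which trap glucose in the cell, stood lower: Hk1 was at 214, 241, 233 and 231 CPM in WT and 139, 150.4, 148 and 150.2 CPM in KO libraries, and Hk2 at 133, 148, 144 and 129.8 and 95.01, 77.6, 93.4 and 103 CPM. Neither gene had a KO library inside the WT range (adjusted p = 1.55e-06 and 5.62e-05). The glucose carrier gene Slc2a1 (GLUT1) fell from 103 ± 8.93 to 75.8 ± 9.42 CPM, and Pfkfb3, which makes the sugar bisphosphate that speeds phosphofructokinase, from 54.9 ± 2.10 to 36.1 ± 1.95 CPM. Falls went on along the pathway, in Gpi1 (1.35-fold), Aldoa (1.57-fold), Tpi1 (1.399-fold), Pgk1 (1.25-fold), Pgam1 (1.38-fold), Eno1 (1.497-fold) and Pkm (1.35-fold). Pkm, which closes glycolysis by making pyruvate, was at 2292, 2393, 2226 and 2119 CPM in WT and 1662, 1533, 1592 and 1905 CPM in KO libraries. Gapdh, often used as a reference gene, was at 4632, 4966, 4441 and 4054 and 3899, 3619, 3543 and 4583 CPM, where KO library 4 lay inside the WT range (log2 fold change −0.21, adjusted p = 0.0926). It was called lower without KO library 4 (adjusted p = 0.0222) and with library totals alone (0.0315). Both rises, Pfkfb2 and Eno2, were at low levels (4.89 ± 0.771 to 6.96 ± 0.99995 and 10.2 ± 1.93 to 14.9 ± 4.42 CPM), and 0 genes of the list rose with library totals alone, without WT library 2, without KO library 3 or without the high-share libraries. In KO cells library 4 was the highest in 10 of the 13 genes that fell. Of 7 pentose phosphate genes 3 rose and 3 fell (85.7% called, against 36.6% of all tested genes). The counts were 1 and 1 without the high-share libraries and 1 and 3 with library totals. Transaldolase, Taldo1, fell from 134 ± 2.25 to 101 ± 4.73 CPM.

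Hypoxia genes fell as well. Hif1a, the oxygen-regulated factor that raises many glycolytic genes, was at 549, 717, 627 and 748 CPM in WT and 340.3, 358, 305 and 291 CPM in KO libraries. The lowest WT library stood above the highest KO library (log2 fold change −1.03, SE 0.152, adjusted p = 8.98e-05). Of 18 genes of the list 9 fell and 1 rose (55.6% called, against 36.6% of all tested genes), with a median of −0.35. Bnip3, a receptor for the removal of mitochondria, was at 36.6, 41.7, 29.5 and 34.4 CPM in WT and 16.6, 13.5, 11.4 and 11.5 CPM in KO libraries, a 2.68-fold fall (adjusted p = 2.14e-05). Its relative Bnip3l fell 1.46-fold, the collagen hydroxylase subunit P4ha1 1.46-fold and the HIF hydroxylases Egln1 and Egln3 1.29- and 1.48-fold. Adm, the gene of a vessel-widening peptide, was the rise, and it lay at 0.0609 ± 0.0541 CPM in WT cells and 0.515 ± 0.132 CPM in KO cells, under 1 CPM in both. The core letters of the HIF element, ACGTG on either strand, occurred in the RefSeq promoters (250 bases before to 50 after the start) of 13 of 15 hypoxia genes (86.7%) and 12 of 19 glycolysis genes (63.2%) that had one, against 29.1% of the 10360 tested genes with a promoter. Of the lists described below, the share was 46.2% in cytosolic aminoacyl-tRNA synthetases, 40% in ATF4 genes and 33.3% in amino acid transporters. It was 29.4% in endoplasmic reticulum stress genes, 28.6% in serine and one-carbon genes and 5.56% in interferon-stimulated genes. The hypoxia list was drawn up from hypoxia and HIF1 targets, so its share describes the list, and no list was tested. Those 5 letters are short and also part of other motifs, and a match is not a site.

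**Figure D2:**
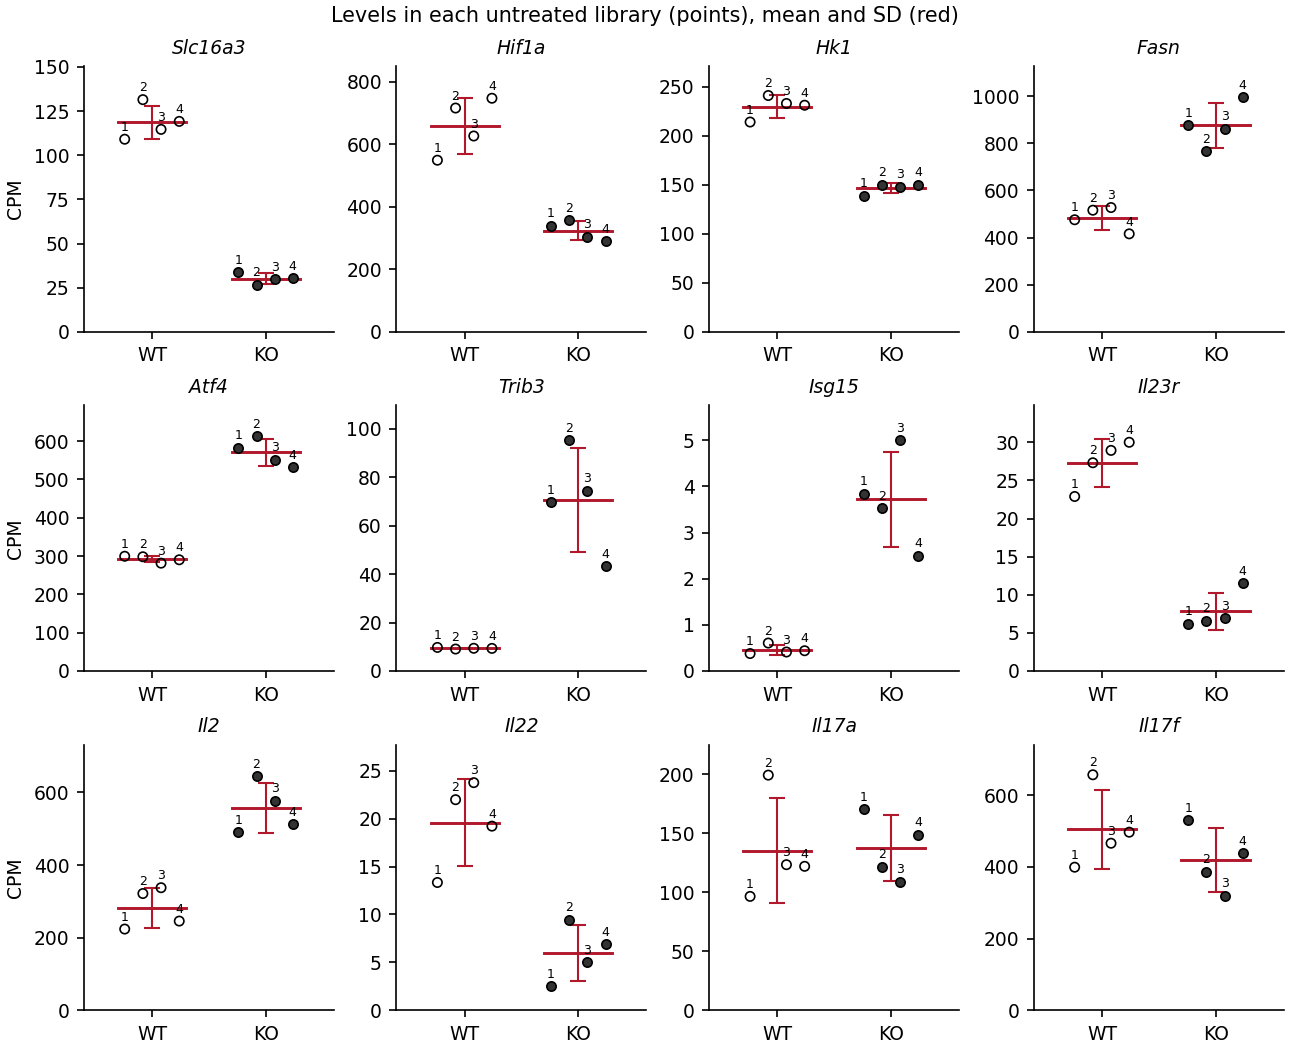
Each panel shows 1 gene, with CPM per library on the y axis (starting at 0), open circles for the 4 WT and filled circles for the 4 KO untreated libraries, numbered 1 to 4, and a bar at each group's mean with an error bar of 1 SD. In Slc16a3, Hif1a, Hk1, Fasn, Atf4, Trib3, Isg15, Il23r, Il2 and Il22 the WT and KO points do not overlap, while in Il17a and Il17f they do.

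Of the 40 pathway and immune lists, the response governed by ATF4 had the highest median log2 fold change. ATF4 is a transcription factor that cells make in larger amounts under a shortage of amino acids or after mitochondrial damage, and that raises genes for amino acid import, amino acid synthesis and tRNA charging. Of 23 tested genes 17 rose and 0 fell, against 18.0% and 18.6% of all genes, with a median log2 fold change of 0.98. Without the high-share libraries 13 rose, the fewest of any alternative. ATF4 binds together with C/EBP proteins at the letters TGATGCAA, and that motif was looked for on both strands of the same RefSeq promoters. It occurred in 6 of 20 ATF4 list genes with a promoter in the table (30%) and in 4 of 13 cytosolic aminoacyl-tRNA synthetase genes (30.8%), against 0.734% of all tested genes with a promoter, and in 0 of 14 serine and one-carbon genes, 0 of 17 endoplasmic reticulum stress genes and 0 of 19 glycolysis genes. With one letter left free (TGATGNAA) the shares were 40%, 38.5% and 2.79%, which adds Trib3, Asns and Gars. The ATF4 list was drawn up from known ATF4 targets, so its share describes the list and no list was tested. Atf3, which did not pass the test, also holds TGATGCAA upstream of its start. Atf4, Atf5, Ddit3 and Stc2, which rose, hold no match in either form. The stretches with a match upstream of the start are shown for a choice of genes that rose, in the gene's own direction, GRCm38.p6, capitals marking the motif, which reads TTGCATCA where it lies on the other strand.
Chac1 (chr2:119351019-119351086, plus strand): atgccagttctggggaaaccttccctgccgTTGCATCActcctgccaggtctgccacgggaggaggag
Herpud1 (chr8:94386287-94386354, plus strand): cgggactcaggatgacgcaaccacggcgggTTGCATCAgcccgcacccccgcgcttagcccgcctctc
Nupr1 (chr7:126625543-126625610, minus strand): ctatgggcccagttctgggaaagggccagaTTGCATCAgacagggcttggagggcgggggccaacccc
Slc7a11 (chr3:50443623-50443709, minus strand): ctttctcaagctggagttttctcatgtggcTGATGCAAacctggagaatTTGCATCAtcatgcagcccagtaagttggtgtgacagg
Aars (chr8:111033700-111033767, plus strand): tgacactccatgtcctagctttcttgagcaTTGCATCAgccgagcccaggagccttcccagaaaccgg
Tars (chr15:11399659-11399703, minus strand): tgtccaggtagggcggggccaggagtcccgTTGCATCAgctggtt
In each of these 6 genes the motif reads TTGCATCA, and Slc7a11 also holds it as TGATGCAA. The matches lie between 8 and 193 bases before the start.

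Atf4 itself was at 299, 298, 281 and 290.3 CPM in WT libraries 1 to 4 and 583, 614, 552 and 533 CPM in KO libraries 1 to 4. The groups stood far apart beside the spread within each (log2 fold change 0.96, SE 0.103, adjusted p = 1.84e-06). Its relative Atf5, which guards mitochondrial protein folding, was at 16.2, 14.9, 14.0 and 14.4 CPM in WT and 51.3, 57.6, 50.9 and 43.9 CPM in KO libraries, a 3.43-fold rise (adjusted p = 1.3e-08). Trib3, a pseudokinase that damps ATF4, was at 9.73, 9.06, 9.37 and 9.33 CPM in WT and 69.6, 95.3, 74.4 and 43.2 CPM in KO libraries. WT libraries agreed within 1 CPM, whereas KO libraries ranged over more than 2-fold, and the rise was 7.54-fold (SE 0.46 on the log2 scale, adjusted p = 0.000375). Ddit3, the death-promoting partner CHOP, was at 9.32, 7.88, 8.38 and 8.99 and 35.7, 52.0, 38.7 and 21.0 CPM, and Nupr1, a stress-induced chromatin protein, at 2.20, 1.85, 1.62 and 2.47 and 14.1, 20.8, 15.2 and 9.45 CPM. Both kept their groups apart, with adjusted p = 0.000442 and 0.00125. Stc2, a secreted stress glycoprotein, rose 6.21-fold, Herpud1, of the disposal of misfolded proteins, 1.93-fold, Sesn2, which restrains mTORC1 when leucine is short, 1.88-fold, and the C/EBP partners Cebpb and Cebpg 2.00- and 1.66-fold. Asns, which makes asparagine, was at 40.0, 48.2, 47.5 and 48.8 CPM in WT and 153, 199.9, 162 and 118 CPM in KO libraries (log2 fold change 1.78, SE 0.391, adjusted p = 0.00365). Cth, which makes cysteine, rose 4.08-fold and Chac1, which breaks down glutathione, 3.88-fold. Without the high-share libraries the values of Asns, Cth and Chac1 were 1.53, 1.78 and 1.85, at adjusted p of 0.0943, 0.0717 and 0.0689. Ppp1r15a, whose product ends the response, was at 21.5 ± 1.16 and 22.5 ± 2.16 CPM (adjusted p = 0.585), and Atf3 at 5.58 ± 1.57 and 4.08 ± 1.39 CPM (0.431). Among KO libraries, library 2 was the highest in 14 of the 17 genes that rose and library 4 the lowest in 16.

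Amino acid carriers also rose, 10 of 16 genes with 0 falls (62.5% called, against 36.6% of all tested genes). Some genes, among them Slc3a2 and Slc7a11, are counted both in this list and in the ATF4 list. Slc7a5, the large neutral amino acid exchanger LAT1, was at 261, 227, 222 and 204 CPM in WT and 454, 526, 473 and 458 CPM in KO libraries, and its heavy chain Slc3a2 at 129, 116, 118 and 113 and 186, 250.2, 199.6 and 185 CPM. All KO values were above all WT values in both (adjusted p = 3.51e-07 and 4.67e-05). The carriers of cationic amino acids rose, Slc7a1 from 215 ± 12.0 to 373 ± 17.5 CPM and Slc7a3 from 3.76 ± 0.742 to 29.5 ± 9.82 CPM. Neutral amino acid carriers rose too, Slc38a2 1.68-fold, Slc1a4 2.79-fold and the glutamine carrier Slc1a5 1.19-fold, as did the cystine importer Slc7a11 3.01-fold from 1.21 ± 0.222 CPM. Slc38a1, another glutamine carrier, was at 241 ± 23.4 and 227 ± 14.3 CPM (adjusted p = 0.389).

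Serine and one-carbon metabolism, which turns glucose carbon into serine, glycine and folate-bound carbon for nucleotides, had 9 rises and 1 fall among 17 genes. The called share was 58.8%, against 36.6% of all tested genes, and rises numbered 6 without the high-share libraries. Shmt2, which splits serine in mitochondria, was at 271, 248, 242 and 227 CPM in WT and 478, 576, 499 and 482 CPM in KO libraries. The lowest KO library exceeded the highest WT library by a wide margin (log2 fold change 1.04, SE 0.105, adjusted p = 1.07e-06). Mthfd2, the next mitochondrial step, was at 161, 181, 179.6 and 190.1 and 332, 450.2, 369 and 292 CPM. That was a 2.03-fold rise with more spread among KO than WT libraries (adjusted p = 0.000624). Phgdh, which opens serine synthesis, rose 1.51-fold, Mthfd1l, which releases formate, 1.23-fold, and methionine synthase Mtr 1.35-fold. The cytosolic counterpart Shmt1 did not pass the test, at 96.0 ± 6.57 and 89.3 ± 7.80 CPM (adjusted p = 0.41). Sfxn1, the carrier that brings serine into mitochondria, was the fall, from 146 ± 6.17 to 118 ± 11.3 CPM.

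Aminoacyl-tRNA synthetases charge tRNAs with amino acids. Of 20 cytosolic ones 12 rose and 3 fell (75% called, against 36.6% of all tested genes), or 8 and 1 without the high-share libraries. Aars, for alanine, was at 265, 242, 244 and 234 CPM in WT and 356, 411, 372 and 350.0 CPM in KO libraries, and Yars, for tyrosine, at 115, 104, 114 and 109 and 166, 185, 169.9 and 162 CPM, without overlap (adjusted p = 4.73e-05 and 3.6e-05). Tars and Gars, for threonine and glycine, rose 1.29- and 1.399-fold, and Tars lost its call without the high-share libraries (adjusted p = 0.0749). Qars, for glutamine, fell, from 173, 174, 169.6 and 183 CPM in WT to 127, 129, 124 and 129.9 CPM in KO libraries (log2 fold change −0.45, SE 0.0508, adjusted p = 2.63e-06). It was the fall with the smallest adjusted p of the list, beside Hars and Kars. Of 17 mitochondrial synthetases 7 rose and 2 fell (52.9% called, against 36.6% of all tested genes). Wars2 rose from 9.45 ± 0.9899 to 17.2 ± 1.39 CPM and Sars2 from 20.5 ± 0.906 to 31.9 ± 1.96 CPM. Rises of the mitochondrial synthetases numbered 4 with library totals or without KO library 4, and 3 without the high-share libraries. Of these synthetases 1 fell without KO library 2 or 3 or WT library 1 or 2. Lars2 varied within each group, at 13045, 1324, 1842 and 719 CPM in WT and 16635, 6018, 1923 and 1272 CPM in KO libraries, highest in the libraries with the high share of the unnamed gene (adjusted p = 0.704).

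Chaperones of the endoplasmic reticulum (ER), which the unfolded protein response of that compartment raises, went the other way from the ATF4 genes. Of 20 genes 12 fell and 1 rose (65% called, against 36.6% of all tested genes), with a median of −0.40. Falls numbered 9 without the high-share libraries. Pdia6, a disulfide isomerase, was at 260.2, 253, 238 and 254 CPM in WT and 181, 154, 172 and 180.3 CPM in KO libraries. Its groups did not overlap (log2 fold change −0.55, SE 0.0621, adjusted p = 2.95e-06). Xbp1, the transcription factor of the IRE1 branch, was at 117, 110.1, 106 and 119.6 and 86.0, 80.2, 86.8 and 87.8 CPM, also without overlap (adjusted p = 0.000143). The chaperone genes Hsp90b1, Hyou1, Dnajb11 and Sdf2l1 fell 1.39-, 1.33-, 1.44- and 1.44-fold. Hspa5, the master chaperone BiP, was at 581, 516, 508 and 507 CPM in WT and 604, 472, 567 and 539 CPM in KO libraries, and its ranges overlapped (adjusted p = 0.761). Ern1, the IRE1 sensor gene, was the rise, from 10.4 ± 0.519 to 14.0 ± 1.17 CPM. Among KO libraries, library 2 was the lowest in 10 of the 12 genes that fell.

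**Figure D3:**
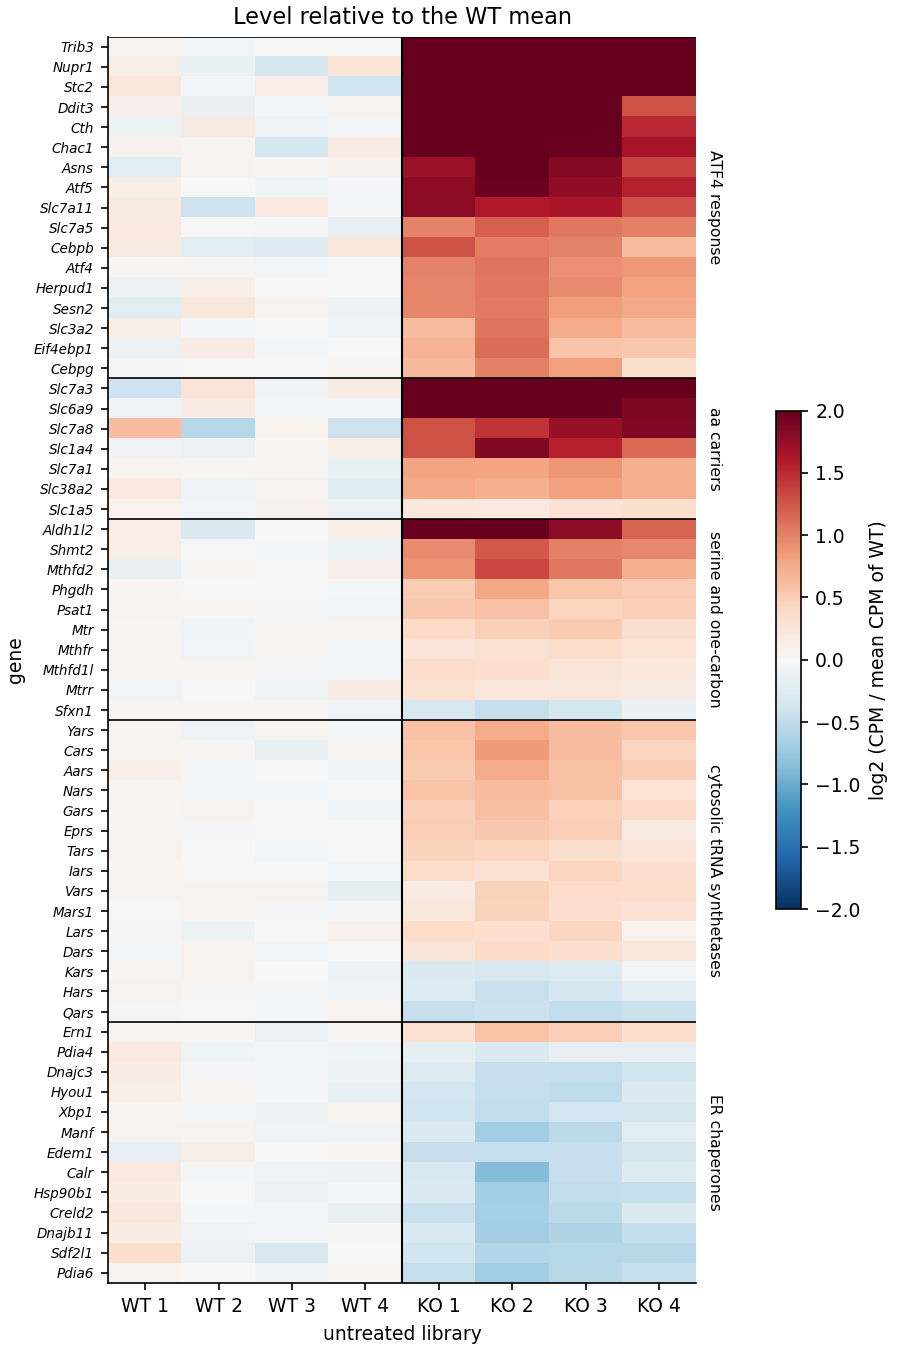
Rows are genes of the ATF4, amino acid carrier, serine and one-carbon, tRNA synthetase and ER lists that passed the test, columns the 8 untreated libraries (aa, amino acid), and colour is log2 of a library's CPM over the mean CPM of the 4 WT libraries (red higher, blue lower; values beyond 2 in size are drawn at 2). The first 4 blocks are red in the KO columns but for Qars, Hars, Kars and Sfxn1, with KO library 4 paler than KO library 2 in most ATF4 rows, and the ER block is blue but for Ern1.

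Mitochondrial protein quality control was mixed, with 6 rises and 6 falls among 19 genes (63.2% called, against 36.6% of all tested genes). Falls numbered 3 without KO library 2 or without the high-share libraries. The mitochondrial Hsp70 gene Hspa9 rose from 853 ± 6.20 to 1048 ± 34.6 CPM, and Oma1, the protease that relays mitochondrial stress to the ATF4 response, was at 15.95, 15.8, 14.4 and 15.9 CPM in WT and 22.8, 29.2, 23.1 and 22.6 CPM in KO libraries. The Oma1 groups did not overlap (log2 fold change 0.66, SE 0.0976, adjusted p = 4.91e-05). The protease subunits Clpp and Clpx moved apart, Clpp from 46.1 ± 2.44 to 35.6 ± 2.11 CPM and Clpx from 41.3 ± 2.11 to 51.3 ± 4.32 CPM. Of 21 NRF2 and glutathione genes 4 rose and 4 fell, with 7 rises by upper-quartile scaling and 1 fall without the high-share libraries. The called share was 38.1%, near the 36.6% of all tested genes. Prdx1 and Sod1, which clear peroxide and superoxide, rose 1.48- and 1.42-fold, and Gpx4, which protects membranes from lipid peroxides, fell 1.34-fold. Of 18 p53 targets 5 rose and 1 fell, with 2 rises without WT library 1 or KO library 4 and 3 without KO library 3, WT library 2, 3 or 4 or the high-share libraries. Their called share, 33.3%, was also near that of all tested genes. The death gene Bbc3 (PUMA) rose from 23.98 ± 1.09 to 38.1 ± 3.66 CPM, and its relative Pmaip1 (NOXA) was at 19.6 ± 2.14 and 22.4 ± 2.34 CPM (adjusted p = 0.154).

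**Figure D4:**
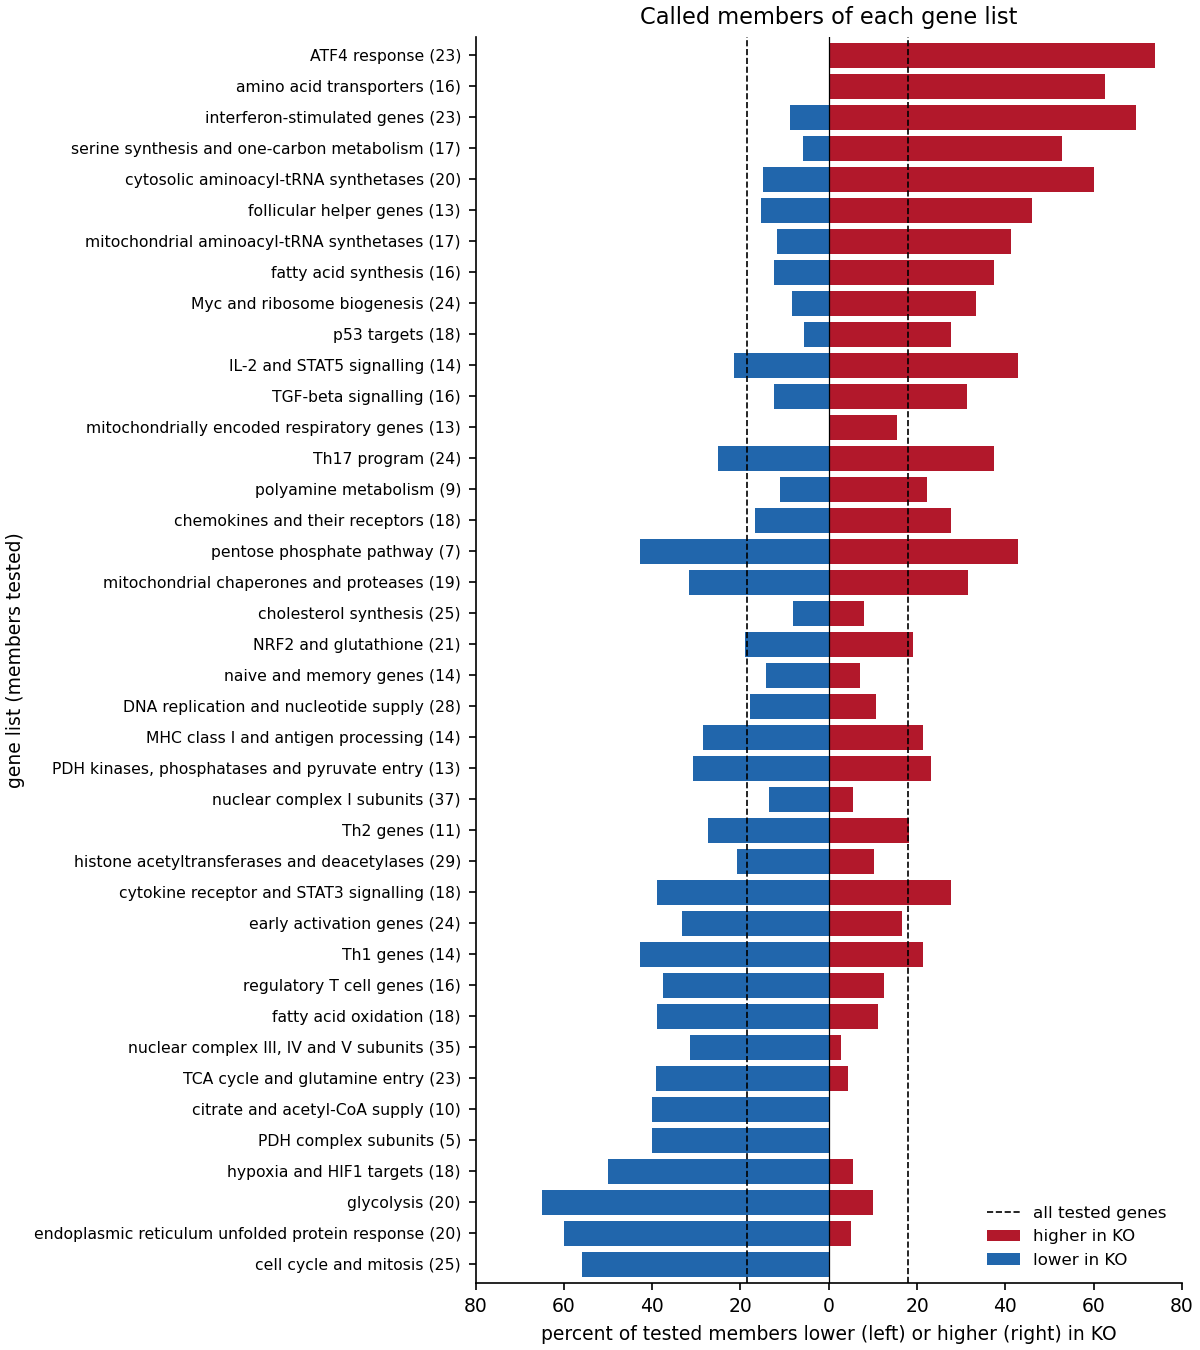
For each of 40 gene lists, bars give the percent of tested members higher (red, to the right) and lower (blue, to the left) in KO cells, with the number of members tested after each name. Dashed lines mark the shares of all 14985 tested genes, 18.0% higher and 18.6% lower. ATF4 response genes, amino acid carriers and interferon-stimulated genes reach furthest to the right, and glycolysis, ER and cell cycle genes furthest to the left among lists of 20 or more.

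Many interferon-stimulated genes, which cells use against viruses, were higher in KO cells, several of them from under 1 CPM. Of 23 tested genes 16 rose and 2 fell (78.3% called, against 36.6% of all tested genes), with a median log2 fold change of 0.63. When only genes with at least 50 counts in 4 libraries were kept, 14 of the list were tested, of which 9 rose and 2 fell. Isg15, a ubiquitin-like protein, was at 0.378, 0.606, 0.411 and 0.439 CPM in WT and 3.85, 3.53, 5.00 and 2.50 CPM in KO libraries. All KO values lay above all WT values, yet the highest was near 5 CPM (log2 fold change 3.00, SE 0.313, adjusted p = 1.24e-06). Ifit1, which binds foreign RNA caps, was at 0.344, 0.364, 0.294 and 0.710 and 3.23, 3.30, 3.96 and 1.80 CPM, and Irf7, which amplifies interferon production, at 0.241, 0.273, 0.4996 and 0.338 and 1.52, 1.81, 2.45 and 1.29 CPM. Neither overlapped (adjusted p = 6.46e-06 and 4.79e-05). The RNA sensor Ifih1 rose 1.55-fold, Irf1 1.32-fold and the guanylate-binding protein gene Gbp3 1.46-fold. The falls were Ifit2, from 22.7 ± 1.11 to 17.3 ± 0.879 CPM, and Oas3, from 17.3 ± 2.80 to 11.5 ± 2.19 CPM. Stat2, of type I interferon signalling, was at 37.6 ± 6.13 and 46.0 ± 9.59999 CPM (adjusted p = 0.241). The Oas, Ifit and Gbp families have near copies among which counts may be divided.

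Interferon factors bind repeats of GAAA, and GAAA, any 2 letters and GAAA again, on either strand, occurred in the promoters of 11 of 18 genes of this list that had one (61.1%), against 3.78% of the 10360 tested genes with a promoter, 2 of 20 ATF4 genes and 0 of 17 ER genes. Matches did not follow the rises: Oas3, which fell, and Stat2, which did not pass the test, hold one upstream of the start. Irf7 and Irf1, which rose, hold none. The stretches upstream of the start are shown for a choice of genes that rose, in the gene's direction on GRCm38.p6, with the motif in capitals. On the other strand the repeat reads TTTC, and matches may overlap one another, as in Isg15, Oas1a and Gbp3.
Isg15 (chr4:156200845-156200926, minus strand): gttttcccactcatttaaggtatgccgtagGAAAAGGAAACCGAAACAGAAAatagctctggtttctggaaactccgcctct
Ifit1 (chr19:34640755-34640843, plus strand): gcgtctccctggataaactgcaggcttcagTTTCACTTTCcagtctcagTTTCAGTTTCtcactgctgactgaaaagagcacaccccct
Oas1a (chr5:120907526-120907575, minus strand): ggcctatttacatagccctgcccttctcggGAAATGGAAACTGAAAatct
Gbp2 (chr3:142620574-142620643, plus strand): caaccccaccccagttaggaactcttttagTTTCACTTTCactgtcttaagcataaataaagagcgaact
Gbp3 (chr3:142559969-142560043, plus strand): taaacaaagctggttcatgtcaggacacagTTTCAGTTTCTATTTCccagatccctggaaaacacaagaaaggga
Isg15 holds 3 overlapping matches, Ifit1 a pair with other letters between. Gbp2, with a single match, was at 239.8, 222, 216 and 208 CPM in WT and 349, 232, 339.7 and 349 CPM in KO libraries, which overlapped although the gene passed the test (adjusted p = 0.0122). The antigen presentation genes that interferon also raises were split, with 3 rises and 4 falls among 14 (50% called, against 36.6% of all tested genes). H2-D1, a class I heavy chain, rose from 534 ± 18.8 to 669.9 ± 36.6 CPM and the immunoproteasome subunit Psmb9 from 45.5 ± 2.05 to 62.0 ± 3.95 CPM, while its partner Psmb8 fell from 208, 201, 216 and 227 CPM in WT to 140.4, 156, 158 and 160.4 CPM in KO libraries (adjusted p = 7.07e-06). Class I heavy chains are near copies of one another, so the share of reads given to H2-D1 is uncertain.

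The genes that define the Th17 fate did not move as a block. Of 24 genes 9 rose and 6 fell (62.5% called, against 36.6% of all tested genes), and the median log2 fold change was 0.039. Il17a was at 96.4, 199, 123 and 122 CPM in WT libraries 1 to 4 and 171, 122, 109 and 149 CPM in KO libraries 1 to 4. The ranges overlapped, WT library 1 being the lowest of the 8 (log2 fold change 0.023, SE 0.294, adjusted p = 0.962). Il17f, whose product pairs with IL-17A, was at 399, 657, 466 and 497 and 530.0, 386, 319.6 and 438 CPM (log2 fold change −0.27, SE 0.222, adjusted p = 0.372), again with overlap.

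Several receptors and signal carriers of the Th17 program fell. Il23r, the receptor chain through which IL-23 sustains these cells, was at 22.9, 27.3, 28.9 and 30.0 CPM in WT and 6.22, 6.61, 6.94 and 11.5 CPM in KO libraries. The highest KO library was below the lowest WT library, a 3.49-fold fall (log2 fold change −1.80, SE 0.147, adjusted p = 1.7e-07). Stat3, the factor that relays IL-6 and IL-23, was at 343, 404, 384 and 373 and 241, 239, 230.1 and 266 CPM, a 1.54-fold fall without overlap (adjusted p = 4.68e-05). Il6ra, the IL-6 receptor chain, fell from 61.7 ± 4.25 to 48.5 ± 4.23 CPM and the IL-1 receptor gene Il1r1 from 33.4 ± 3.21 to 24.05 ± 3.87 CPM. Il6st, the chain (gp130) that both IL-6 and related cytokines use, was at 65.9 ± 3.48 and 61.5 ± 3.83 CPM (adjusted p = 0.278). Jak2, a kinase of these receptors, rose from 562 ± 24.4 to 714 ± 58.2 CPM. Of 18 genes of cytokine receptors and STAT3 signalling 5 rose and 7 fell (66.7% called, against 36.6% of all tested genes). Falls numbered 4 without the high-share libraries and rises 3 with library totals.

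Cytokine genes split. Il22, an effector cytokine that acts on epithelia, was at 13.3, 21.99, 23.8 and 19.2 CPM in WT and 2.53, 9.46, 5.04 and 6.91 CPM in KO libraries. No KO library reached the WT range (log2 fold change −1.70, SE 0.329, adjusted p = 0.00134). Il21, which acts back on T cells and on B cells, was at 272, 272, 271 and 301 and 559, 465, 443 and 441 CPM and rose 1.71-fold, without overlap (adjusted p = 0.000105). Csf2, which encodes GM-CSF, was at 4.75, 9.45, 7.93 and 6.32 CPM in WT and 30.5, 36.1, 20.6 and 18.4 CPM in KO libraries, where every KO library stood above the WT range and KO library 2 was the highest. Its log2 fold change was 1.89 (SE 0.315, adjusted p = 0.000477) and 1.30 without the high-share libraries (adjusted p = 0.0296). Il9, made by Th9 and some Th17 cells, was at 8.63, 6.91, 4.91 and 3.95 and 48.9, 20.1, 19.2 and 29.0 CPM, and Ccl20, the chemokine that draws Ccr6-bearing cells, at 7.98, 10.2, 7.88 and 7.54 and 61.6, 24.4, 32.3 and 30.3 CPM. Both rose, with adjusted p = 0.00337 and 0.00023, and in both KO library 1 was the highest. Ccr6 itself, the receptor for that chemokine, rose from 36.5 ± 4.48 to 56.3 ± 6.88 CPM, and Maf, a factor that drives Il21, from 74.5 ± 5.81 to 139 ± 30.7 CPM. In 7 of the 9 Th17 genes that rose, library 1 was the highest of the KO libraries.

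IL-2 signalling genes rose more than they fell, 6 against 3 of 14 (64.3% called, against 36.6% of all tested genes). Without the high-share libraries 5 rose and 1 fell. Il2, the T cell growth factor, was at 224, 321, 338 and 246 CPM in WT and 491, 644, 577 and 513 CPM in KO libraries. The groups were apart and the rise 1.97-fold (log2 fold change 0.98, SE 0.125, adjusted p = 1.6e-05). Stat5a, which relays IL-2, rose from 369 ± 42.9 to 551 ± 93.1 CPM, the receptor kinase Jak3 from 164 ± 9.44 to 214 ± 9.33 CPM and the survival kinase Pim2, a STAT5 target, from 257 ± 13.3 to 442 ± 23.8 CPM. Il2ra, the high-affinity chain CD25, was at 1714 ± 89.0 and 1637 ± 149 CPM (adjusted p = 0.537).

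Genes of the Th1 fate held 6 falls and 3 rises among 14 (64.3% called, against 36.6% of all tested genes). Stat4, which relays IL-12, was at 75.3, 123, 113 and 121 CPM in WT and 31.2, 54.6, 42.0 and 40.5 CPM in KO libraries, and Il12rb2, the IL-12 receptor chain, at 77.0, 139, 103 and 138 and 28.7, 48.2, 29.5 and 26.0 CPM. WT library 1 was the lowest of its group in both, and KO values stayed below it (adjusted p = 0.000294 and 0.00121). Runx3, a cytotoxic and Th1 factor, fell 1.71-fold, granzyme B (Gzmb) 1.90-fold and the death ligand gene Fasl 1.91-fold. Il18rap, of the IL-18 receptor, rose, from 10.9, 10.3, 14.4 and 11.1 CPM in WT to 28.2, 27.2, 33.4 and 35.8 CPM in KO libraries (adjusted p = 2.55e-07). Tbx21, which encodes T-bet, was at 22.6 ± 3.67 and 18.4 ± 2.89 CPM (adjusted p = 0.18, and 0.0163 with a term for replicate number). Ifng was at 0.656 ± 0.140 and 2.00 ± 0.760 CPM, a log2 difference of 1.61 (adjusted p = 0.001) that was 0.98 without the high-share libraries (adjusted p = 0.0945). Of 11 Th2 genes 2 rose and 3 fell (45.5% called, against 36.6% of all tested genes).

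Of 16 regulatory T cell genes, some of them shared with activated T cells, 6 fell and 2 rose (50% called, against 36.6% of all tested genes). Ctla4, the inhibitory receptor, was at 276, 388, 352 and 404 CPM in WT and 194, 156, 143 and 155 CPM in KO libraries, and Tnfrsf9, the costimulatory receptor 4-1BB, at 135, 169, 137 and 141 and 64.5, 70.5, 64.5 and 64.3 CPM. KO and WT values did not overlap in either (adjusted p = 8.18e-05 and 7.92e-07). The receptor genes Tigit and Tnfrsf4 fell 2.10- and 1.30-fold. Foxp3, which defines regulatory T cells, was at 14.2, 7.18, 9.82 and 9.67 and 7.62, 2.91, 9.79 and 10.0 CPM, ranges that overlapped (adjusted p = 0.624). Ikzf2, the factor Helios, rose from 10.1 ± 1.45 to 19.0 ± 5.42 CPM.

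Of 13 follicular helper genes 6 rose and 2 fell (61.5% called, against 36.6% of all tested genes), or 1 fell without WT library 1. Id3, an inhibitor of E proteins, was at 32.5, 33.2, 40.9 and 30.7 CPM in WT and 61.0, 65.6, 66.7 and 62.6 CPM in KO libraries, and Pou2af1, a transcriptional coactivator, rose 1.68-fold. Tox2 rose from 2.31 ± 0.579 to 4.23 ± 0.538 CPM, the receptor gene Btla from 161 ± 3.86 to 211 ± 17.8 CPM. Cxcr5, the receptor that leads cells to follicles, fell from 7.94 ± 1.77 to 3.59 ± 1.14 CPM, and Bcl6, the factor that defines the fate, was at 16.3, 16.7, 18.7 and 15.9 CPM in WT and 14.8, 14.9, 16.9 and 20.7 CPM in KO libraries (adjusted p = 0.955).

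Genes switched on early by the T cell receptor split as well, with 8 falls and 4 rises among 24. The called share was 50%, against 36.6% of all tested genes, and falls numbered 6 without the high-share libraries. Nr4a1, a nuclear receptor that reports receptor signalling, was at 263, 423, 399 and 373 CPM in WT and 155, 194, 173 and 205 CPM in KO libraries, and its relative Nr4a2 fell 3.19-fold. The Nr4a1 groups were apart (log2 fold change −1.004, SE 0.116, adjusted p = 5.3e-06). Fosl2, an AP-1 member that limits Th17 genes, was at 107, 171, 144 and 158 and 43.2, 51.4, 40.2 and 47.5 CPM, a 3.18-fold fall (adjusted p = 7.04e-05). Jun, another AP-1 member, rose from 26.6 ± 2.23 to 38.2 ± 3.20 CPM, while Fos and Egr1 were at 13.2 ± 2.24 and 11.1 ± 1.46 CPM and at 126 ± 22.4 and 113 ± 22.5 CPM (adjusted p = 0.204 and 0.65). Irf4, which scales with receptor signal strength, was at 694 ± 30.7 and 644 ± 48.8 CPM (0.217). In 7 of the 8 genes that fell, WT library 1 was the lowest WT library and WT library 2 the highest. T cell identity markers fell in 8 of 12 genes and rose in 0 (66.7% called, against 36.6% of all tested genes). Cd2, an adhesion receptor, fell the most, from 320.0, 307, 287 and 336 CPM in WT to 182, 144, 145 and 150.2 CPM in KO libraries (adjusted p = 2.61e-08). Cd3g fell 1.36-fold and Cd4 1.19-fold.

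TGFβ signalling genes gave 5 rises and 2 falls among 16 (43.8% called, against 36.6% of all tested genes). Rises numbered 3 without KO library 1, without WT library 2 or with library totals, which gave 4 falls. Tgfbr1 rose from 59.2 ± 6.68 to 83.7 ± 6.24 CPM and Tgfbr2, its partner chain, fell from 76.7 ± 2.42 to 65.0 ± 1.71 CPM. Chemokines and their receptors gave 5 rises and 3 falls among 18 (44.4% called, against 36.6% of all tested genes). Among the rises were Ccl5, from 0.372 ± 0.184 to 2.58 ± 0.527 CPM, and Cxcl10, from 1.499 ± 0.136 to 6.38 ± 2.91 CPM. Naive and memory genes gave 1 rise and 2 falls among 14, and 4 falls with library totals or the 8 untreated libraries alone. Their called share of 21.4% was below the 36.6% of all tested genes. Satb1, a chromatin organiser of T cells, was at 895, 982, 942 and 923 CPM in WT and 601, 561, 596 and 623 CPM in KO libraries, and fell 1.57-fold (adjusted p = 3.74e-06). S1pr1, through which T cells leave lymph nodes, was at 53.01 ± 5.20 and 59.2 ± 4.88 CPM (adjusted p = 0.185).

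Mitotic genes were lower in KO cells. Of 25 cell cycle genes 14 fell and 0 rose (56% called, against 36.6% of all tested genes), with a median of −0.18. Falls numbered 10 without the high-share libraries. Ccnb2, the mitotic cyclin B2, was at 92.1, 92.2, 84.5 and 95.8 CPM in WT and 60.1, 60.9, 63.3 and 60.7 CPM in KO libraries. All KO values were lower (log2 fold change −0.57, SE 0.0686, adjusted p = 5.63e-06). The mitotic kinase gene Plk1 fell 1.37-fold, Ube2c, of the anaphase-promoting complex, 1.47-fold, and Ccne1, the cyclin of S phase entry, 1.53-fold. Mki67, the common marker of dividing cells, was at 744, 637, 649.6 and 656 CPM in WT and 761, 629, 757 and 693 CPM in KO libraries, with overlap (adjusted p = 0.499). Replication and nucleotide genes gave 3 rises and 5 falls among 28, a share below that of all genes, with 1 fall without the high-share libraries, 2 without KO library 2, 3 without KO library 3, without WT library 1 or with upper-quartile scaling, and 1 rise and 8 falls with library totals. Paics, of purine synthesis, fell from 345 ± 7.38 to 261 ± 6.52 CPM, and the replicative helicase gene Mcm5 was at 353 ± 27.2 and 374 ± 28.3 CPM (adjusted p = 0.459).

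Myc, the factor of growth that activated T cells need, was at 353, 429, 440.3 and 385 CPM in WT and 535, 557, 633 and 673 CPM in KO libraries. KO values were all higher (log2 fold change 0.58, SE 0.0839, adjusted p = 4.03e-05). Of 24 genes of Myc and ribosome biogenesis 8 rose and 2 fell (41.7% called, against 36.6% of all tested genes). Rises numbered 5 without WT library 4 or with library totals. Falls numbered 1 without any 1 of KO libraries 1 to 3 or WT libraries 1 to 3, and 0 without the high-share libraries. The nucleolar protein genes Npm1 and Nop56 rose 1.47- and 1.39-fold, while their partner Nop58 was at 319.9 ± 17.3 and 357 ± 35.1 CPM (adjusted p = 0.261). Enzymes that place acetyl groups on histones, drawing on acetyl-CoA, and those that remove them gave 3 rises and 6 falls among 29, near or below the 18.0% and 18.6% of all genes, and 3 falls without KO library 3 or WT library 1. Sirt1, an NAD-dependent deacetylase, was at 38.2, 31.9, 38.2 and 37.4 CPM in WT and 59.3, 52.8, 58.6 and 53.5 CPM in KO libraries, without overlap (adjusted p = 1.54e-05), and Sirt2 fell from 109.9 ± 5.76 to 78.9 ± 6.31 CPM. Hat1, which acetylates new histones, fell from 156 ± 3.00 to 122 ± 4.59 CPM, and the bromodomain reader Brd2 rose from 327 ± 10.3 to 489 ± 40.0 CPM. Ep300 and Crebbp, the large coactivator acetyltransferases, were at 102 ± 11.1 and 97.1 ± 8.80 CPM and at 49.4 ± 8.38 and 54.1 ± 3.93 CPM (adjusted p = 0.558 and 0.41).

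The largest changes were ranked among called genes whose groups did not overlap and whose higher mean reached 5 CPM. Aqp4, a water channel, led the rises, at 0.206, 0.212, 0.264 and 0.406 CPM in WT and 5.13, 8.91, 5.22 and 3.53 CPM in KO libraries. Fscn1, which bundles actin, followed at 0.791, 0.788, 0.823 and 0.744 and 8.94, 15.0, 8.81 and 8.71 CPM. Tspoap1, a scaffold of synapses, was at 4.92, 7.12, 9.46 and 9.46 CPM in WT and 34.6, 112, 71.2 and 29.8 CPM in KO libraries. In Tspoap1, KO library 2 stood far above the other KO libraries, all of which exceeded the WT libraries (log2 fold change 3.00, SE 0.389, adjusted p = 7.6e-05). Further rises were in complement C3, at 3.61 ± 0.939 and 20.7 ± 5.47 CPM, in Kynu of tryptophan breakdown, at 1.83 ± 0.848 and 10.4 ± 1.97 CPM, and in the IL-1 antagonist gene Il1rn, at 2.87 ± 0.897 and 12.9 ± 3.76 CPM. Cd70, the ligand of CD27, rose 5.29-fold and Dagla, which makes an endocannabinoid, 5.92-fold. Among the falls, Ramp3, a partner of peptide hormone receptors, was at 1.68, 9.91, 5.97 and 8.31 CPM in WT and 0.272, 0.939, 0.432 and 0.331 CPM in KO libraries, with WT library 1 lowest of its group (log2 fold change −3.67, SE 0.773, adjusted p = 0.00268). Crem, a factor of cyclic AMP signalling, was at 48.2, 86.9, 68.0 and 89.2 and 23.9, 22.99, 16.4 and 17.8 CPM. Its fall was 3.61-fold, and WT library 1 was again the lowest WT library. Vat1, a membrane-trafficking protein, fell 3.499-fold, the phosphatase gene Dusp3 3.70-fold, the proteoglycan gene Sdc1 2.74-fold and the plexin gene Plxnb2 2.71-fold.

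The genotype difference was set beside that measured with acetate, tested as the interaction, which is KO against WT with acetate minus KO against WT without. It passed the test in 1785 genes, 11.9% of those tested, 30.5% of the genes called without acetate and 1.22% of the rest. With acetate, 150 genes (1.0%) differed between genotypes, against 5481 without. Of the 2699 genes higher without acetate, 765 had a negative and 0 a positive interaction, and of the 2782 lower ones 904 had a positive and 0 a negative one. The untreated difference is part of the interaction. By construction that favours a sign opposite to it and a higher share among the genes called without acetate. Without the high-share libraries the interaction passed in 1010 genes.

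Slc16a3 had a log2 fold change of −1.98 without and −0.36 with acetate, an interaction of 1.61 (SE 0.184, adjusted p = 5.89e-05). KO acetate libraries held 75.6, 91.1, 81.9 and 91.3 CPM of it, against 33.8, 26.7, 29.7 and 30.4 CPM in KO untreated ones, so the 2 KO groups did not overlap. Hif1a went from −1.03 without to 0.038 with acetate (interaction adjusted p = 0.00473), Hk1 from −0.65 to 0.0053 (0.000338) and Stat3 from −0.62 to −0.047 (0.00749). Among the rises, Slc7a5 was at 1.06 without and 0.015 with acetate (0.000104), Shmt2 at 1.04 and 0.29 (0.00343) and Isg15 at 3.00 and 0.73 (0.0026). Atf4 stood at 0.96 and 0.30 (0.00627, and 0.0788 without the high-share libraries). Trib3 did not pass in edgeR, at 2.91 without and 1.03 with acetate (0.0757), but did in DESeq2 (0.0222). Il23r was at −1.80 and −0.24 (0.000115), Il22 at −1.70 and −0.54 (0.112), and Il21 at 0.77 and 0.40 (0.171). The Il22 interaction passed without KO untreated library 2 (just under the threshold, at a rounded 0.05) and without the high-share libraries (0.0462). Myc was at 0.58 and 0.08 (0.0105, and 0.0586 with library totals). Il2 was at 0.98 and 0.36 (0.0295), and its call was lost without KO untreated library 2 or 3 or WT untreated library 1 or 4, at adjusted p of 0.0656, 0.0625, 0.0501 and 0.0639, without the high-share libraries (0.137) and with library totals (0.0912). Il17a and Il17f had genotype differences of 0.023 and −0.27 without and 0.84 and 0.23 with acetate, and their interactions did not pass (adjusted p = 0.234 and 0.341).

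**Figure D5:**
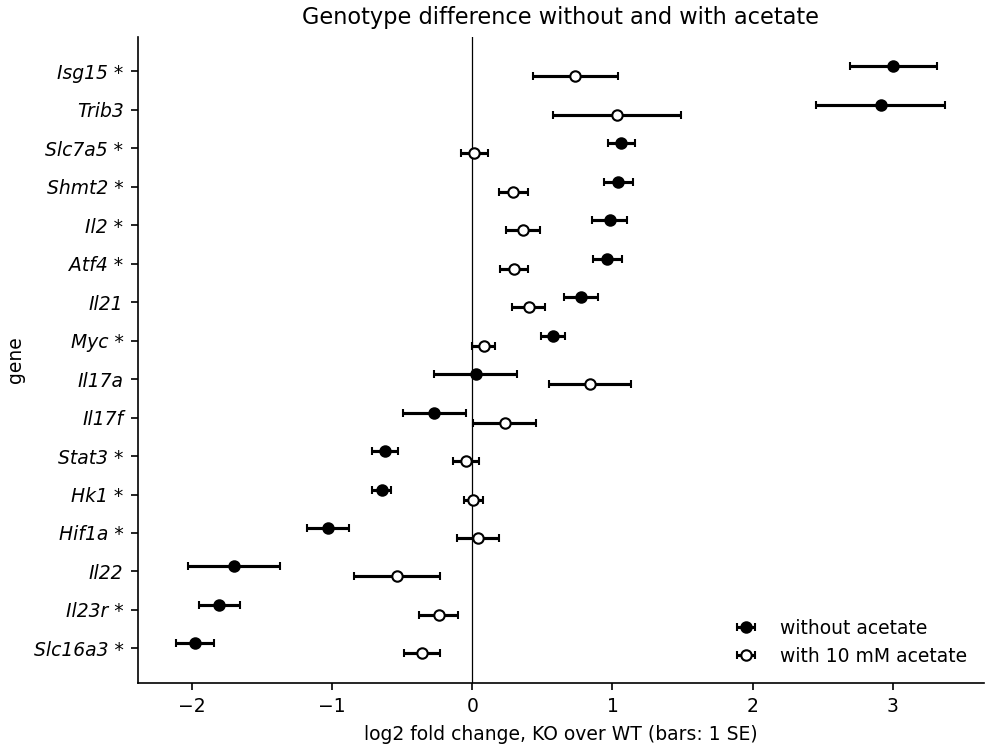
For 16 genes, points give the log2 fold change of KO over WT without acetate (filled) and with 10 mM acetate (open), with bars of 1 SE, 4 libraries per group. In 15 of the 16 genes the point with acetate lies nearer to 0 than the one without. Of all 5481 genes called without acetate, 5318 had a smaller difference with acetate. Stars mark the 11 genes whose interaction passed an adjusted p of 0.05. It passed in 11.9% of all tested genes and 30.5% of those called without acetate.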

How the data were processed

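RNA was sequenced from 16 Th17 cultures, 4 libraries in each of 4 groups, and groups were taken from the labels. The authors deposited 1 table of estimated counts per gene as whole numbers, not scaled between libraries. Salmon, DESeq and DESeq2 are named in the submitters' processing notes, without versions, with genome build and annotation not given in the sources used here. All 15571 genes of the table reach 10 counts in at least 3 libraries, so rarer genes were not analysed here. Gene identifiers were named through the reference table of symbols, and 350 had no name.

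From these counts, edgeR 4.0.16 (R 4.3.3, limma 3.58.1) fitted all 16 libraries with a mean per group, TMM scaling, its default filter on low counts and the robust quasi-likelihood test. Genes were called at a Benjamini-Hochberg adjusted p under 0.05 over the 14985 genes tested. Every adjusted p given is from edgeR unless DESeq2 (1.42.0) is named. Levels are counts per 1000000 (CPM) on TMM-scaled library sizes, which do not correct for gene length, so they compare libraries and not genes. Libraries held 24.57 to 33.72 M counts, so that counting error is small above a few CPM. Pairs of replicates differed by more than counting noise, and none were merged. The fit was tested on simulated counts.

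Members and gene lists were chosen with earlier results of these data known, and list members were counted without a test of the list. Genes named belong to a list, to the 20 largest rises or falls with no overlap and at least 5 CPM in the higher group, or to 16 genes chosen for the interaction. Alternatives covered scaling, filter, tool, replicate block, the untreated libraries alone and libraries left out. Promoter sequences are from RefSeq, GRCm38.p6.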

Additional observations from a re-analysis of the deposited data

Results flagged for a closer look

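Within a group of 4 libraries, a library was singled out where its gap to the nearest other exceeded, as a share of the group's range, Dixon's 95% critical value. Chance does this in about 1 in 20 groups, and among the 225 genes named it happened in 39 of 450 groups (8.67%). Levels are in CPM, with the range of the other 3 libraries after each. In 10 genes, WT library 1 stood apart, highest in Dnajb11 (111 against 94.2 to 96.6), Hspa5 (581 against 507 to 516) and Lars2 (13045 against 719 to 1842), and lowest in Asns (40.0 against 47.5 to 48.8), Eno2 (7.29 against 10.7 to 11.4), Fh1 (87.1 against 93.3 to 93.7), Ifng (0.447 against 0.705 to 0.744), Pdk1 (85.3 against 92.6 to 93.7), Scd2 (1405 against 1631 to 1639) and Vat1 (27.0 against 37.3 to 38.6). In 3 genes, WT library 2 stood apart, highest in Ccl20 (10.2 against 7.54 to 7.98) and Runx3 (128 against 112 to 114), and lowest in Sirt1 (31.9 against 37.4 to 38.2). In 4 genes, WT library 3 stood apart, highest in Il1r1 (38.2 against 31.6 to 32.0) and Tbx21 (28.1 against 20.5 to 21.0), and lowest in Ern1 (9.61 against 10.6 to 10.7) and Oma1 (14.4 against 15.8 to 15.95). In 7 genes, WT library 4 stood apart, highest in Etfa (77.5 against 73.4 to 74.1), Ifit1 (0.710 against 0.294 to 0.364), Il21 (301 against 271 to 272) and Oas1a (0.541 against 0.275 to 0.303), and lowest in Got2 (278 against 314 to 317), Sfxn1 (137 against 148 to 150.4) and Slc7a1 (197 against 219 to 222). In 2 genes, KO library 1 stood apart, highest in Cd2 (182 against 144 to 150.2), and lowest in Fh1 (67.1 against 74.5 to 75.6). In 8 genes, KO library 2 stood apart, highest in Bnip3l (77.2 against 65.0 to 66.9), Fscn1 (15.0 against 8.71 to 8.94), Gpx4 (145 against 122 to 125), Il12rb2 (48.2 against 26.0 to 29.5), Oma1 (29.2 against 22.6 to 23.1) and Tnfrsf9 (70.5 against 64.3 to 64.5), and lowest in Fdft1 (132 against 158 to 161) and Gbp2 (232 against 339.7 to 349). In 5 genes, KO library 4 stood apart, highest in Got2 (264 against 219 to 226), Gpi1 (344 against 313 to 315), Il23r (11.5 against 6.22 to 6.94), Kars (289 against 239 to 247) and Vat1 (12.4 against 9.09 to 9.49).

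Of the 16 genes tested for a genotype difference that depends on acetate, 11 passed in edgeR's quasi-likelihood test. That test passed in 11.9% of all tested genes and 30.5% of those called without acetate. The difference with acetate minus that without, on the log2 scale, was positive in genes lower in KO cells without acetate: Stat3 (0.58), Hif1a (1.07), Slc16a3 (1.61), Hk1 (0.65) and Il23r (1.56). It was negative in genes higher in KO cells: Myc (−0.50), Shmt2 (−0.75), Il2 (−0.62), Isg15 (−2.27), Slc7a5 (−1.05) and Atf4 (−0.67).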

How the results depend on the processing

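The untreated comparison was repeated under 17 alternatives and the interaction under 16, changing 1 choice at a time. Leaving out 1 untreated library at a time gave 4491 to 5454 genes called, 2209 to 2700 higher and 2282 to 2754 lower in KO cells, and 1278 to 1723 interaction genes. Without the high-share libraries (WT 1, KO 1, KO 2 and KO 2 with acetate), which leaves 3 WT and 2 KO untreated libraries, 3361 genes passed (1577 higher, 1784 lower), 3185 of them also among the 5481 reported, and the interaction count was 1010. DESeq2 called 2849 and 2954, and the strict filter (at least 50 counts in 4 libraries) 2514 and 2465. Of all calls, 49.2% were higher in KO cells as reported, 37.3% with library totals and 59.3% with upper-quartile scaling. Of the 192 named genes called, 175 kept the call in all 17 alternatives and 17 lost it in at least 1, each of them without the high-share libraries and 10 only there. Among named genes not called, Tbx21 and Pdk2 were called with the replicate block (adjusted p = 0.0163 and 0.0489). The sign of the log2 fold change turned in 7 genes that were not called under any setting. Without the high-share libraries it was −0.00965 for Acss2, 0.13 for Bcl6, 0.0859 for Ep300, 0.154 for Foxp3 and −0.207 for Il17a. With library totals it was −0.0117 for Hspa5 and −0.0496 for Il17a, with the strict filter 0.0185 and with upper-quartile scaling 0.0408 for Bcl6. Leaving out 1 library at a time gave −0.122 to 0.0489 for Bcl6, −0.109 to 0.269 for Il17a, −0.00355 to 0.114 for Hspa5 and −0.459 to 2.32 for Lars2. The cause was not tested. With one letter of the ATF4 motif left free, the share of all tested genes' promoters went from 0.734% to 2.79%. Whether replicate numbers pair the samples was not settled. Deviations of WT and KO untreated libraries with the same number correlated across genes at 0.218, 0.0408, −0.0593 and −0.084 for numbers 1 to 4. Not every library correlated best with its own number, but weak correlation does not exclude pairing. Untreated and acetate libraries of the same number were not compared in this way. With the replicate block, 2858 genes were higher, 3028 lower and 2259 had an interaction, and the Il22 interaction passed (adjusted p = 0.0164). Depth limits the genes under 1 CPM, among them many interferon-stimulated genes in WT cells, whose fold rests on few reads.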
